A study of Gallus gallus with 12 samples.

Results

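Chaperones and immediate early genes were followed in 12 RNA sequencing libraries of the chick (Gallus gallus) node, the mature Organiser, and of the tissue at its side. The members are the 71 rows of the count table whose symbols name heat shock proteins, J-domain proteins, CCT subunits, BAG proteins, or FOS, JUN, EGR, IER and ATF3 genes, out of 13106 rows in all. They carry 70 distinct symbols, since HSPE1 has 2 rows. A node and a lateral library came from each of 6 embryos. The manual embryos (n = 3) were dissected by hand while alive, and the LCM embryos (n = 3) were fixed in modified methacarn, embedded in paraffin, sectioned and cut by laser capture microdissection. In both methods the node library held cells that had been labelled with a fluorescent marker when gastrulation closed and had stayed in the Organiser, and the lateral library held neighbouring neural plate and emerging presomitic mesoderm. Stages were 8 somites for embryo 1 of both methods and 9 somites for the remaining 4. No treatment or strain is given. Method and embryo cannot be told apart, since no embryo was sampled by both methods.

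Chaperones bind proteins that are not in their folded state. HSP70 proteins hold short exposed stretches in a cycle driven by ATP, J-domain proteins (the DNAJ genes) bring clients to them and start the cycle, and HSP110 and BAG proteins exchange the nucleotide that ends it. HSP90 acts later on clients such as kinases and receptors, the ring-shaped CCT complex folds actin and tubulin, and HSPD1 with its lid HSPE1 forms the folding chamber of mitochondria. Heat shock factors switch on the inducible chaperones when unfolded protein builds up. Immediate early genes such as JUN, EGR1 and ATF3 are transcribed within minutes of a stimulus without new protein synthesis, and tissue handling is a known stimulus for both classes.

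Total counts ran from 18568123 to 30997461 in manual libraries and from 21139477 to 25972879 in LCM libraries. At that like depth, 8378 to 11497 genes were detected in manual libraries and 7235 to 10011 in LCM libraries. The median gene had 30 to 166.5 counts in manual libraries, against 3, 1 and 2 counts in LCM node 1, lateral 1 and lateral 2 and 18 to 109.5 counts in the other LCM libraries. The part of this in low LCM counts of members was not tested. Brachyury (T), listed here among Organiser and notochord genes, had more counts in the node than in the lateral library of all 6 embryos. LCM lateral 1 held 18038 counts of T, against 35422 in LCM node 1. The notochord gene GNOT1 had fewer counts in the node in LCM embryos 1 (333 against 1251) and 2 (810 against 882). It had more in the node of the other embryos. SHH was counted 57, 7 and 38 times in manual node libraries and not at all in LCM libraries. CFC1 had 873, 17 and 228 counts in LCM node libraries, against 4, 0 and 0 in LCM lateral libraries. CHRD had 0, 78 and 543 counts in LCM node libraries, against 1, 0 and 0 in LCM lateral ones. In each manual embryo CFC1 and CHRD had more counts in the node. NOG had 0, 1 and 0 counts in LCM node libraries and 0, 0 and 16 in LCM lateral ones. A pair of libraries shared reads across the methods: of 104 genes with 100 or more counts in manual lateral 1 and none in other embryos apart from LCM node 2, 100 were counted in LCM node 2, at a median of 3.45% of their count in manual lateral 1. In the other direction 10 of 10 such genes of LCM node 2 were counted in manual lateral 1, at a median of 1.67%, a share that was not subtracted. Reads of manual lateral 1 were therefore treated as carried into LCM node 2, and edgeR's fits were repeated with that share subtracted; DESeq2 was not run on the subtracted counts. Manual embryo 1 also stood apart: members took 4.66% and 4.11% of its node and lateral counts, against 2.56% to 3.01% in the other manual libraries and 2.50% to 3.23% in LCM libraries.

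HSPA8 and HSP90AA1 were the members with the most counts. HSPA8, the constitutive cytosolic HSP70, took 24.4% to 35.5% of the members' counts in manual libraries and 21.4% to 28.9% in LCM libraries. HSP90AA1, the stress-inducible cytosolic HSP90 of mammals, took 21.1% to 30.6% in manual and 24.7% to 28.0% in LCM libraries. Of the 71 members, 43 were counted in all 12 libraries and 4 stayed under 10 counts in every library. The filter on low counts left 61 members to test in both comparisons. The 10 others were DNAJB2, DNAJB5, DNAJB8, DNAJC12, DNAJC30, FOSL2, HSPB1, HSPB3, IER5 and the second HSPE1 row.

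The first comparison sets live dissection against fixed sections. In edgeR's main fit no member passed the threshold (adjusted p under 0.05), while DESeq2 called 3 higher and 8 lower. Those are 4.92% and 13.1% of the members it adjusted, against 6.95% and 4.38% of all genes. The families did not lie alike, a contrast that was not tested. All 3 HSP110 members and all 4 DNAJA members had lower values in every manual embryo than in any LCM embryo, as had 11.5% of all genes. The HSP70 row, whose identity as the heat-inducible gene the files do not settle, had higher fitted values in manual embryos, as did DNAJB4 and ATF3, while BAG3 had lower ones. The 3 HSP90 members overlapped between the methods.

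Counts were summed over the node and lateral library of each embryo and tested with edgeR's quasi-likelihood test, with Benjamini-Hochberg adjustment over 9113 genes. At an adjusted p under 0.05 edgeR called 0 members higher and 0 lower, as it called 0.0% of all genes in each direction. At an unadjusted p under 0.05, 5 members were higher and 9 lower of 61, or 8.2% and 14.8%, against 7.83% and 5.44% of all genes. The values of the 3 manual embryos lay all above those of the LCM embryos for 9 members and all below for 19, or 14.8% and 31.1%, against 13.2% and 11.5% of all genes. The log2 fold change (manual over LCM) was positive for 25 members, or 41.0%, against 48.2% of all genes. Its median was −0.20 over members and −0.06 over all genes. DESeq2 called 3 members higher (CCT5, HSPA14 and DNAJB4) and 8 lower (DNAJC9, HSPA4, DNAJC2, DNAJA1, HSPD1, DNAJC8, HSPH1 and CCT6), or 4.92% and 13.1% of those it adjusted, against 6.95% and 4.38% of all genes. limma voom called 0 in each direction. Leaving out manual embryo 1, edgeR called CCT5 higher and HSPA4, HSPD1 and DNAJC2 lower. That is 1.61% and 4.84% of 62 members against 0.33% and 1.1% of all genes. The manual embryos left in that fit were all at 9 somites, while LCM embryo 1 was at 8, so stage was no longer balanced. The same 4 members were called with the carried share subtracted as well, when 0.247% and 0.796% of all genes were called. The p-values measure the spread between embryos, which was wide (biological coefficient of variation 110.78%).

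**Figure D1:**
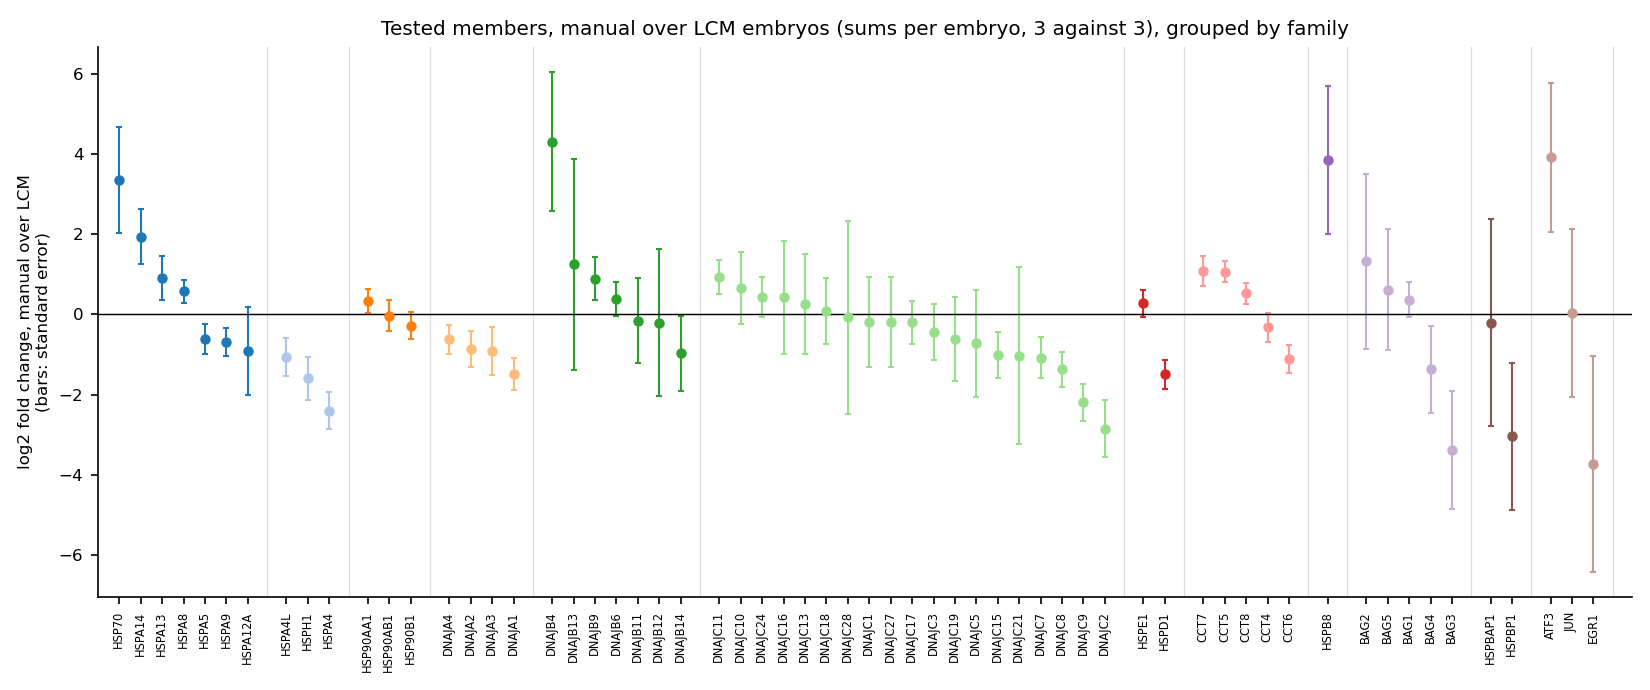
Log2 fold change, manual over LCM, with its standard error, for each of the 61 tested members, grouped and coloured by family and ordered by size within a family. All HSP110 and DNAJA members lie below 0, CCT members lie on both sides, and the widest bars belong to members with few counts.

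Endoderm markers lay apart by method in all libraries: the 5 of the list in the table summed to 708 to 1867 CPM (counts scaled to library size) in manual libraries and 7.43 to 463 CPM in LCM libraries. TTR had 0 to 3 counts in LCM libraries other than node 2, and APOA1 0 to 4. Presomitic mesoderm markers (4 in the table) summed to 60 to 113 CPM in manual libraries and 38 to 681 CPM in LCM libraries. Of these, DLL1 had 53 to 470 counts in manual and 1011 to 10355 in LCM libraries. TBX6 overlapped, at 350 to 1629 counts in manual and 0 to 4412 in LCM libraries. MSGN1 overlapped too, at 133 to 874 and 0 to 1103 counts. Blood and vessel markers (4 in the table) summed to 222 CPM in LCM lateral 2 and 46.5 CPM in LCM node 2. In the other libraries they summed to 0.0769 to 9.68 CPM. The part of these tissues in the members' differences was not tested. In bulk tissue, fewer cells of a type and less RNA per cell cannot be told apart.

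The HSP70 row lies on chromosome 5 from 52784177 to 52786081 on the minus strand, in the deposited table's own coordinates with no build named. RefSeq's gene table lists that name as a synonym of HSPA2, and the files do not settle whether the row is the main heat-inducible HSP70 of the chick. Node libraries of manual embryos 1 to 3 held 3493, 645 and 542 counts of it, and their lateral libraries 11913, 400 and 1129. Node libraries of LCM embryos 1 to 3 held 1, 385 and 1270 counts, and their lateral libraries 20, 1 and 146. Manual embryo 1 was highest in both tissues, and the node libraries of the methods overlapped.

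As CPM over the whole embryo, HSP70 stood at 262, 26.9 and 44.3 in manual embryos and 0.447, 9.27 and 22.9 in LCM embryos. Those embryo values did not overlap. The log2 fold change was 3.35 ± 1.32 (SE, 3 embryos per method; edgeR adjusted p = 0.321). It was 1.69 without manual embryo 1 (edgeR adjusted p = 0.664) and 6.40 in lateral libraries alone. Node libraries alone gave 1.498 (edgeR adjusted p = 0.787). The carried share came to 411.2 counts in LCM node 2, more than the 385 found there, so no count was left after subtraction and the log2 fold change was 3.84 (edgeR adjusted p = 0.433).

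**Figure D2:**
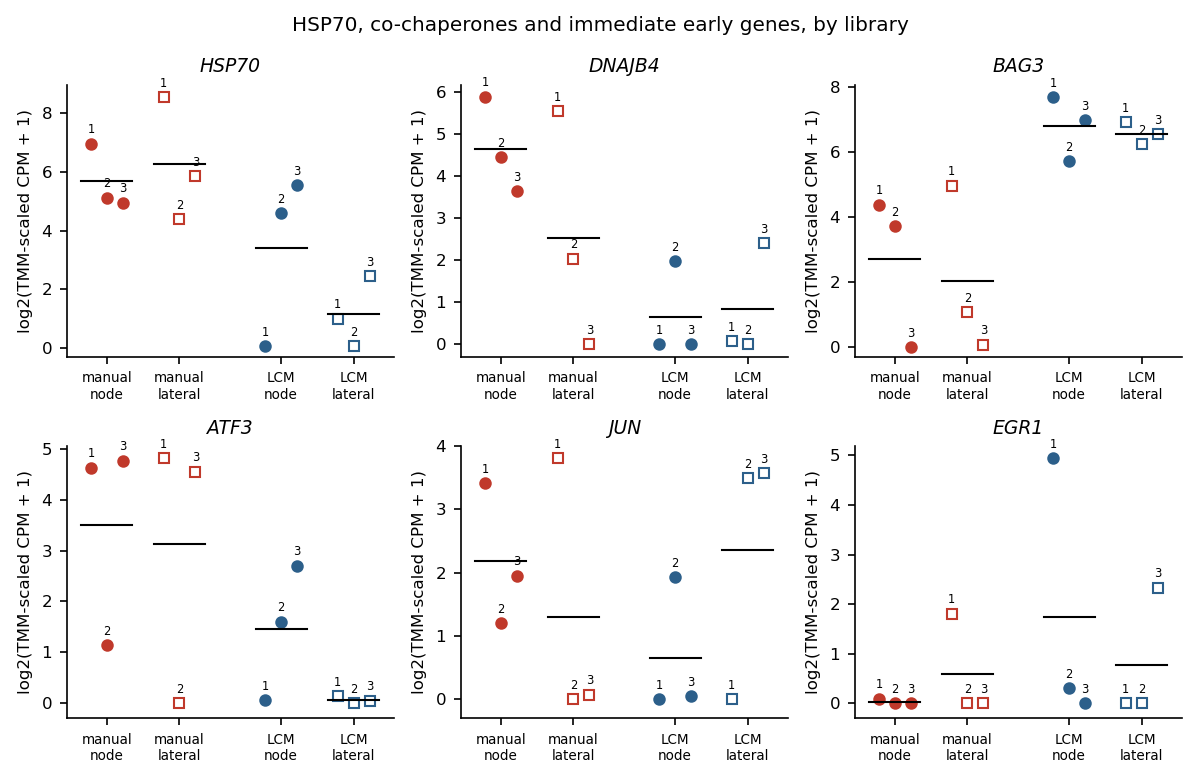
Level of HSP70, 2 co-chaperones and 3 immediate early genes in each library, as log2(TMM-scaled CPM + 1); filled circles are node and open squares lateral libraries, red manual and blue LCM, numbers give the embryo and black bars the mean of 3 libraries. HSP70 is highest in manual lateral 1 and near 0 in LCM node 1 and LCM lateral 2, while BAG3 is higher in all 6 LCM libraries than in any manual library.

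BAG3, a co-chaperone of HSP70 that heat shock factor induces and that serves selective autophagy, ran the other way. Manual node libraries held 562, 232 and 0 counts of BAG3 and manual lateral libraries 969, 22 and 1. LCM node libraries held 5386, 866 and 3462 counts and LCM lateral libraries 2403, 1977 and 3054. Scaled for depth, every LCM library lay above every manual one. Embryo values were 26.0, 6.53 and 0.0265 CPM in manual and 166, 68.3 and 105 CPM in LCM embryos, a log2 fold change of −3.38 ± 1.48 (edgeR adjusted p = 0.368). Leaving out manual embryo 1 moved it to −5.16.

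For DNAJB4, an inducible partner of HSP70, manual node libraries held 1636, 396 and 206 counts and manual lateral ones 1448, 62 and 0. LCM node libraries had 0, 49 and 0 counts, and LCM lateral libraries 1, 0 and 142. The carried share could hold all 49 of LCM node 2 (50.0 estimated). Per embryo it stood at 52.4, 11.8 and 5.46 CPM in manual and 0.0213, 1.18 and 2.29 CPM in LCM embryos (log2 fold change 4.31 ± 1.74, edgeR adjusted p = 0.331, DESeq2 adjusted p = 0.0274), and with the carried share subtracted the fold change was 4.91 (edgeR adjusted p = 0.391).

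Of the small heat shock proteins, HSPB8 works with BAG3. Its counts were 50, 1 and 0 in manual node libraries and 23, 9 and 13 in manual lateral libraries, against 0, 3 and 1 in LCM node and 0, 0 and 2 in LCM lateral libraries. HSPB1 and HSPB3 were too low to test: HSPB1 reached 18 counts at most and HSPB3 had 41 counts in manual lateral 2 and 0 elsewhere. DNAJB5 had 42 counts in manual node 1, at most 1 in the other manual libraries and 0 in LCM libraries.

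The 5 immediate early members were sparse and did not lie to one side as a group, and FOSL2 and IER5 were too low to test. No row carried the symbols FOS, FOSB, JUNB or JUND, so those genes were not assessed, and 1686 rows had no symbol. The IER5 row spans 288 bases and the JUN row 945. The part of annotation in their low counts was not tested. For ATF3, a transcription factor of the stress response, manual node libraries held 672, 23 and 475 counts and manual lateral libraries 869, 0 and 450. LCM node libraries had 1, 34 and 153 counts of ATF3, where the carried share could make up 88.2% of the 34, and LCM lateral libraries had 2, 0 and 1. Manual embryos 1 and 3 lay above all others, and manual embryo 2 (0.592 CPM) lay inside the LCM range of 0.0638 to 2.49 CPM. The log2 fold change was 3.92 ± 1.86 (edgeR adjusted p = 0.411), or 4.28 with the carried share subtracted (edgeR adjusted p = 0.413).

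For JUN, a subunit of the AP-1 transcription factor, manual node libraries held 272, 25 and 52 counts and manual lateral ones 416, 0 and 1. In LCM libraries JUN had 0, 47 and 1 counts in the node and 0, 271 and 360 in lateral tissue. The methods overlapped, with a log2 fold change of 0.03 ± 2.10 (edgeR adjusted p = 0.997) that was −2.06 without manual embryo 1. Counts of EGR1, a zinc finger factor, were 2, 0 and 0 in manual node libraries and 80, 0 and 0 in manual lateral ones, against 774, 4 and 0 in LCM node and 0, 0 and 133 in LCM lateral libraries. FOSL2 had 36 counts in manual lateral 1 and at most 3 elsewhere, and IER5 had a single count in all, in manual lateral 3.

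Among the abundant HSP70 and HSP90 members, HSPA8 had higher values in all manual embryos. It stood at 14308, 8753 and 8529 CPM in manual and 8330, 6657 and 6158 CPM in LCM embryos, with no overlap (log2 fold change 0.58 ± 0.29, edgeR adjusted p = 0.431). Without manual embryo 1 it was 0.30. HSP90AA1 stood at 12956, 7482 and 6686 CPM in manual and 7576, 7849 and 6184 CPM in LCM embryos. Those values overlapped, and the log2 fold change of 0.33 ± 0.30 turned to −0.01 without manual embryo 1. HSP90AB1 (−0.03 ± 0.38) and the endoplasmic reticulum form HSP90B1 (−0.28 ± 0.34) overlapped as well.

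HSPA14, a ribosome-associated HSP70, stood at 40.0, 100.3 and 76.4 CPM in manual and 13.7, 31.0 and 11.7 CPM in LCM embryos (log2 fold change 1.94 ± 0.68, edgeR adjusted p = 0.274, DESeq2 adjusted p = 0.0186). Its values did not overlap. HSPA5 (BiP), the HSP70 of the endoplasmic reticulum, and HSPA9, that of mitochondria, lay lower in all manual embryos, with log2 fold changes of −0.61 ± 0.37 and −0.69 ± 0.36.

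The HSP110 members, which release nucleotide from HSP70, had the median farthest from 0 (−1.60) of the families with more than 2 tested members. HSPA4 stood at 94.2, 37.9 and 48.0 CPM in manual and 395, 261 and 301 CPM in LCM embryos. Its highest manual value was thus below its lowest LCM value, with a log2 fold change of −2.41 ± 0.46 (edgeR adjusted p = 0.176, DESeq2 adjusted p = 0.000519). Without manual embryo 1 the value was −2.90 (edgeR adjusted p = 0.0258). HSPH1 stood at 46.7, 24.3 and 51.1 CPM in manual and 130, 166 and 73.9 CPM in LCM embryos (−1.60 ± 0.53), and HSPA4L had a log2 fold change of −1.07 ± 0.48.

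DNAJA1, a main cytosolic J-domain partner of HSP70, stood at 58.5, 68.9 and 73.8 CPM in manual and 171, 247 and 148 CPM in LCM embryos (−1.49 ± 0.41, edgeR adjusted p = 0.235, DESeq2 adjusted p = 0.00171). The other DNAJA members had log2 fold changes of −0.92 (DNAJA3, mitochondrial), −0.86 (DNAJA2) and −0.62 (DNAJA4). In node libraries alone DNAJA1, DNAJA2, DNAJA3 and DNAJA4 had −1.72, −1.34, −1.72 and −0.71. In lateral libraries alone they had −1.21, −0.48, −0.07 and −0.45. None of the 4 overlapped between methods in embryo values, and 11.5% of all genes likewise lay lower without overlap. Single libraries of DNAJA2 and DNAJA4 did overlap.

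Of 19 tested DNAJC members, 6 had positive and 13 negative log2 fold changes, and 5 lay lower without overlap. Of all genes, 48.2% had positive values and 11.5% lay lower without overlap. DNAJC9, a chaperone of histones H3 and H4, stood at 23.1, 29.5 and 30.9 CPM in manual and 135, 137 and 110 CPM in LCM embryos. The spread within each method was narrow beside that gap (−2.19 ± 0.46, edgeR adjusted p = 0.194, DESeq2 adjusted p = 2.21e-07). DNAJC2, a ribosome-bound J protein that pairs with HSPA14 in mammals, stood at 24.6, 7.00 and 5.96 CPM in manual and 80.4, 106 and 85.5 CPM in LCM embryos (−2.85 ± 0.72, or −3.79 without manual embryo 1 at an edgeR adjusted p of 0.035). DNAJC8, linked to splicing, had −1.37 ± 0.43. DNAJC11, of the mitochondrial membrane, was the DNAJC member with no overlap and higher manual values (0.93 ± 0.42).

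The CCT complex holds its subunits in equal number, and the 5 subunits among the members did not shift together. A further subunit, TCP1 (CCT1), has a symbol outside the members' rule. It overlapped between the methods, at 303, 804 and 641 CPM in manual and 608, 1217 and 628 CPM in LCM embryos. CCT5 stood at 4307, 4005 and 4307 CPM in manual and 1946, 2445 and 1632 CPM in LCM embryos (1.07 ± 0.26, edgeR adjusted p = 0.22). CCT6 went the other way, at 159, 162 and 196 CPM in manual and 390, 466.5 and 268 CPM in LCM embryos (−1.12 ± 0.35, edgeR adjusted p = 0.235). Neither overlapped between the methods, and both were called by DESeq2, at adjusted p-values of 0.00605 and 0.0422. CCT7 (1.09 ± 0.37) and CCT8 (0.53 ± 0.26) lay with CCT5, and CCT4 overlapped (−0.32 ± 0.37).

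A ratio of counts within a library does not depend on scaling between libraries. The pairs were chosen after the values were seen and carry no test. The ratio of CCT5 to CCT6 counts was 21.7 to 33.3 in manual libraries and 3.95 to 8.76 in LCM libraries. All 6 libraries of each method, from 3 embryos, lay apart for this ratio. Embryo values of CCT5 and CCT6 already lay apart in opposite directions, so the ratio restates that difference. The ratio of CCT7 to CCT6 was 2.39 to 4.92 in manual and 0.327 to 1.79 in LCM libraries, and that of CCT8 to CCT6 was 9.56 to 16.0 in manual and 2.81 to 6.70 in LCM libraries. These 3 ratios share CCT6, and that of CCT5 to CCT4 overlapped, at 13.1 to 35.3 in manual and 5.09 to 15.8 in LCM libraries.

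The partners of the mitochondrial folding chamber also parted. HSPD1 stood at 310, 186 and 185 CPM in manual and 577, 824 and 518 CPM in LCM embryos (−1.49 ± 0.36, edgeR adjusted p = 0.22), with a value of −1.75 without manual embryo 1 (edgeR adjusted p = 0.0308). HSPE1, which lies next to HSPD1 on chromosome 7 on the opposite strand, overlapped at 2054, 2880 and 3078 CPM in manual and 1949, 3195 and 1466 CPM in LCM embryos (0.28 ± 0.34). The ratio of HSPE1 to HSPD1 counts was 6.16 to 20.7 in manual and 2.58 to 4.66 in LCM libraries. The ratio of HSPA8 to HSPH1 was 121 to 543 in manual and 31.2 to 94.9 in LCM libraries, whereas that of HSPA8 to HSP90AA1 overlapped, at 1.05 to 1.54 in manual and 0.826 to 1.12 in LCM libraries.

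**Figure D3:**
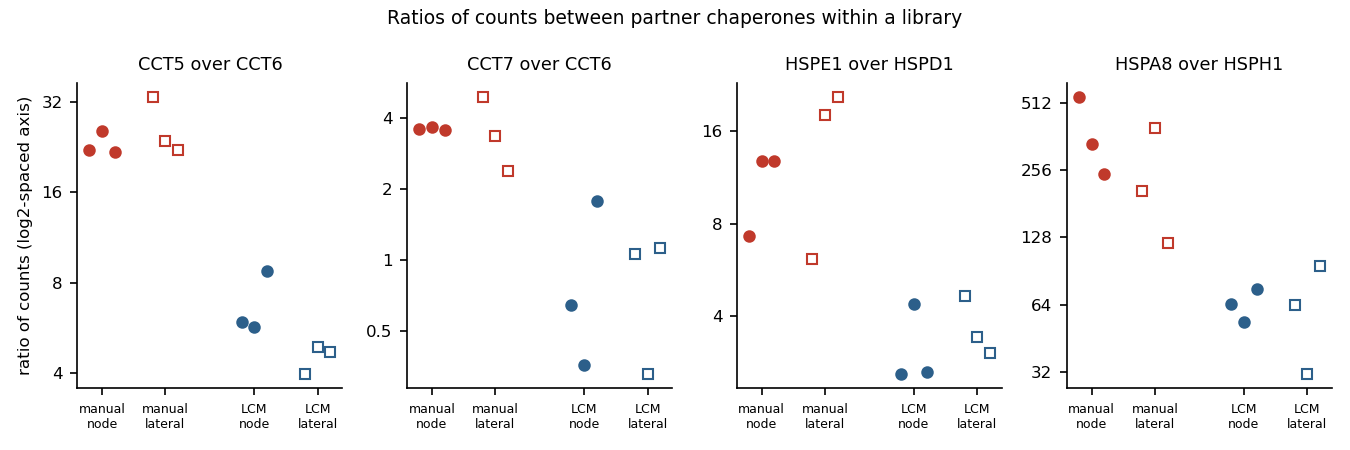
Ratios of counts between partner chaperones in each library on a log axis; filled circles are node and open squares lateral libraries, red manual and blue LCM. For CCT5 over CCT6 all manual libraries lie at 21.7 or above and all LCM libraries at 8.76 or below.

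Related genes outside the members were split as well, and edgeR called 0 of each list. Of 25 tested heat shock and folding partners 12 had positive and 13 negative log2 fold changes (median −0.06), of 22 genes of endoplasmic reticulum folding 9 and 13 (median −0.31), and of 29 other immediate early and stress genes 13 and 16 (median −0.35). UBB, a polyubiquitin gene, stood at 1447, 1238 and 1024 CPM in manual and 685, 688 and 499 CPM in LCM embryos (0.99 ± 0.29). BTG1, an antiproliferative gene, stood at 40.9, 49.9 and 58.7 CPM in manual and 174, 158 and 178 CPM in LCM embryos (−1.77 ± 0.41). ASNS, asparagine synthetase and a target of the amino acid response, was higher in manual embryos at 2.62 ± 0.62. The heat shock factor HSF1 had 7 counts in manual lateral 1 and 0 elsewhere. HSF2 stood at 41.9, 30.9 and 57.0 CPM in manual and 91.3, 80.8 and 78.3 CPM in LCM embryos. The folding partners STIP1 and FKBP8 were also near 0, at no more than 0.094 CPM in any library. All were named after their values were seen. Whether such rows were poorly captured or little expressed was not tested.

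The second comparison sets the node against lateral tissue of the same embryo. The members as a whole lay where other genes lay, with a median log2 fold change (node over lateral) of 0.18 over members and 0.17 over all genes, and 63.9% of members and 57.8% of genes on the positive side. With the embryo as a block, edgeR called 0 of 61 members and 0.0% of 9491 genes in each direction. At an unadjusted p under 0.05, 2 members were higher (HSPA8 and HSPA5, 3.28%) and 0 lower, against 2.68% and 0.738% of all genes. limma voom called 0 members, and DESeq2 called DNAJC27 alone, against 1.92% and 0.89% of all genes called higher and lower. A single member had node values above lateral ones in all 6 embryos (HSPA12A) and a single one lower (DNAJC8), which is 1.64% of members each way against 2.36% and 0.99% of all genes.

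HSPA8 had 15760, 9635 and 9688 CPM in manual node libraries, against 12432, 7796 and 7319 CPM in manual lateral libraries. It had 8519, 8790 and 7134 CPM in LCM node libraries, against 8544, 4913 and 5568 CPM in LCM lateral libraries. LCM embryo 1 was level and the other 5 embryos had more in the node, and the log2 fold change was 0.37 ± 0.11 (edgeR adjusted p = 0.999, limma voom adjusted p = 0.0585).

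HSPA5 had 115, 122 and 234 CPM in manual node libraries, against 93.8, 83.5 and 99.95 CPM in manual lateral libraries. In LCM embryos it had 180, 323 and 281 CPM in the node and 207, 110 and 107 CPM in lateral tissue. The node value exceeded the lateral one in 5 of 6 embryos (0.81 ± 0.35, edgeR adjusted p = 0.999).

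HSPA12A, a distant relative of HSP70, had 14.7, 7.54 and 20.2 CPM in manual node libraries, against 3.20, 0.649 and 10.2 CPM in manual lateral libraries. It had 37.8, 42.0 and 9.10 CPM in LCM node libraries, against 0.0502, 14.3 and 3.27 CPM in LCM lateral libraries (2.55 ± 1.37, edgeR adjusted p = 0.999). DNAJC8 was lower in each node library than in its partner, by 0.09 to 1.11 on the log2 scale (−0.52 ± 0.39). DNAJC27, a J protein with a small GTPase domain, lay higher in 5 of 6 node libraries and lower in that of LCM embryo 3, at 3.47 CPM in its node and 49.2 CPM in its lateral library (edgeR log2 fold change 4.10 ± 2.26, DESeq2 adjusted p = 0.0384). With no embryo block, edgeR gave DNAJC27 a log2 fold change of 0.795.

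**Figure D4:**
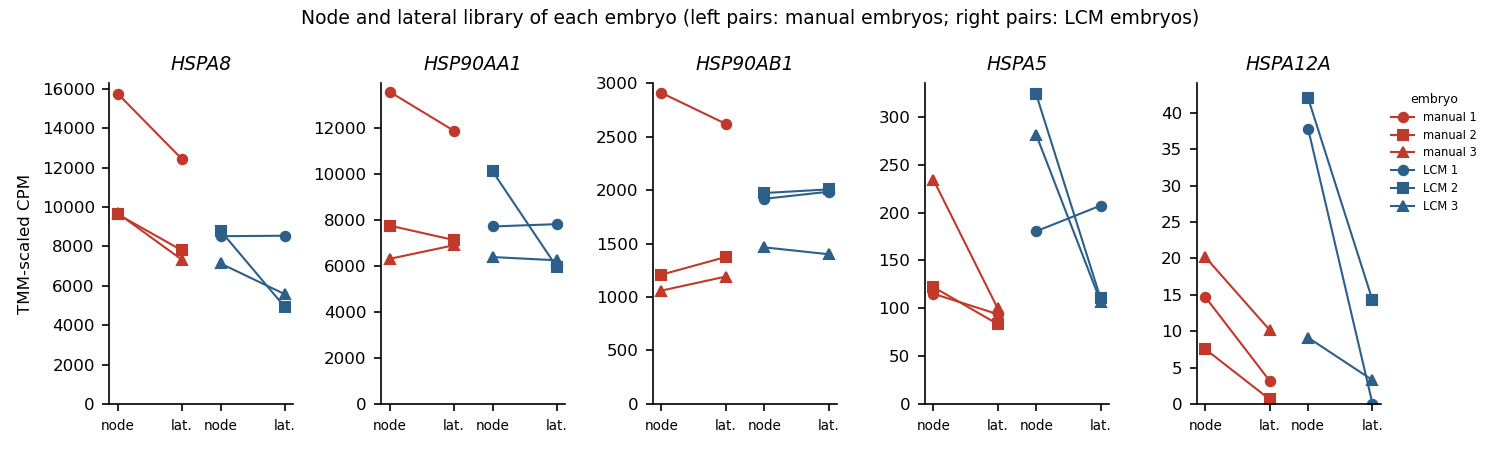
TMM-scaled CPM of 5 members in the node (left point) and lateral (right point) library of each embryo, joined by a line, with manual embryos in red and LCM embryos in blue and the symbol giving the embryo. In 5 of 6 embryos HSPA8 and HSPA5 lie higher in the node, HSPA12A does in all 6, while HSP90AB1 is nearly level.

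The HSP70 row, BAG3, DNAJB4, ATF3 and JUN were called in neither direction by edgeR. HSP70 had higher node values in 3 embryos and lower ones in the other 3, with a log2 fold change of 0.39 ± 1.46, or −0.65 with the carried share subtracted, which leaves LCM node 2 no count. BAG3 had 0.39 ± 0.76 and JUN 0.30 ± 2.75, both with embryos on either side of 0. ATF3 had 3.11 ± 2.45, with higher node values in 4 of 6 embryos, or 2.49 with the carried share subtracted. DNAJB4 had 1.87 ± 2.88, also with 4 of 6, or 0.50 with the share subtracted. The cytosolic HSP90 members were nearly level, at 0.16 ± 0.12 for HSP90AA1 and −0.03 ± 0.14 for HSP90AB1.

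Within manual embryos edgeR called 0 members and 0.0% of all genes, node against lateral. At an unadjusted p under 0.05 it found 0 members, against 0.738% of all genes higher and 0.242% lower. DESeq2 called 0 members there, against 0.242% and 0.121%. Within LCM embryos edgeR called 0 members, against 0.0211% of all genes higher and 0.0% lower, and 2 members were higher and 0 lower at an unadjusted p under 0.05, against 3.89% and 1.33%. DESeq2 called DNAJC27 (6.99) and ATF3 (5.69) higher in LCM node tissue, against 6.38% and 4.21% of all genes. DNAJC27 stood at 8.42, 16.7 and 3.47 CPM in LCM node libraries and 0, 0.0377 and 49.2 CPM in LCM lateral ones. Its sign depended on the embryo block, as edgeR with no block gave −0.78 in LCM embryos. For the difference between methods, manual minus LCM, edgeR called 0 members and 0.0% of all genes, with 0 members at an unadjusted p under 0.05 against 0.622% and 1.97%. DESeq2 called DNAJC13 (5.82), against 1.59% and 2.12% of all genes, and the carried share could make up all 32 counts of DNAJC13 in LCM node 2. With the share subtracted, edgeR gave ATF3 a log2 fold change of 4.13 in LCM embryos (adjusted p = 0.929) and DNAJC13 a difference of 8.08 (adjusted p = 1.0). limma voom called 0 members in each of these contrasts. Scaling by DESeq2 size factors gave all genes in LCM embryos a median of 0.19, against 0.36 with TMM, and the members 0.20, against 0.39. The level of 0 in that contrast therefore depends on the scaling.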

How the data were processed

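RNA of 1 to 7 ng per sample was extracted on miRNeasy columns and amplified with the SMARTer low RNA kit, per the labels' protocols, so a transcript can drop out of a single library, and counting error is only part of the error. The authors deposited raw read counts per Ensembl gene with coordinates, and a normalized signal table scaled by a size factor per library, which entered no test. Bowtie2 2.2.3 is named per the submitters' processing notes, with no role. No source used here names the counter, strand use, annotation or genome build, so near-identical copies and antisense partners cannot be told apart. No column was left unmapped. No row lacked a gene identifier.

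Tests used edgeR 4.0.16 in R 4.3.3 (quasi-likelihood, TMM, filterByExpr at 10 counts and 15 in total), with limma 3.58.1 and DESeq2 1.42.0 as alternatives and Benjamini-Hochberg adjustment over all tested genes. Manual against LCM used sums per embryo, and node against lateral all 12 libraries with the embryo as block. CPM are scaled by TMM. For differences within an embryo, 2 counts were added as a prior before taking log2 CPM. Scripts were tested on simulated data with a narrower spread than these data have, so that test does not measure power here. The labels name the same embryo for a node and a lateral library. Deviations of such pairs correlated at 0.473, 0.116 and 0.215 in manual and 0.07, 0.03 and 0.067 in LCM embryos.

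The members, lists and tests were chosen with earlier results of these data known. Members named are those of each family with the highest CPM and the largest fold changes, all immediate early members, those at 0 in a whole method, and those with the same sign in all 6 embryos. Others named fall outside that rule and were chosen after their values were seen. Families were grouped from general knowledge. Promoter and protein sequences were not used here.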

Additional observations from a re-analysis of the deposited data

Results flagged for a closer look

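For 6 members the difference between node and lateral library (log2 CPM) in 1 embryo stood apart from the other 5, by a gap of more than 0.625 of the whole range (Dixon's 95% limit for 6 values). The test was made on 35 members, and chance flags about 1 in 20 where values are normally distributed. The share flagged over all genes is not given here, so the 6 flags are not a result about the members. In LCM embryo 2, HSPA13 had a difference of 9.63 (−1.47 to 1.33 in the others), from 1603 counts in the node and 1 in the lateral library. In the same embryo BAG1 had 4.24 (−0.78 to 0.90), HSP90AA1 had 0.77 (−0.13 to 0.19) and DNAJC17 had −3.15 (−0.14 to 1.34). The carried share could make up 91.3 of the 101 counts of DNAJC17 in LCM node 2, but only 155.3 of the 9976 counts of BAG1. In LCM embryo 1, HSPA12A had 8.15 (0.98 to 3.38), from 983 counts in the node and 1 in the lateral library, and HSPA14 had −3.30 (−0.61 to 0.64). All 6 values lie in LCM embryos.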

How the results depend on the processing

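For manual against LCM, edgeR called 0 members higher and 0 lower; DESeq2 called 3 and 8, leaving out 1 embryo gave 0 to 1 and 0 to 3, with manual embryo 1 the one that raised both, and subtracting the carried share as well as leaving out that embryo (chosen after seeing the data) gave 1 and 3. For node against lateral, DESeq2 called 1 member, 2 in LCM embryos and 1 for the difference between methods, where edgeR called 0 in each, and leaving out any 1 embryo left edgeR at 0. The cause was not tested. Subtracting the carried share alone, DESeq2 size factors, limma voom, no filter, and node or lateral libraries alone kept the counts of called members at 0. With a replicate block for the embryo number, manual against LCM gave 0 higher and 0 lower and a median of −0.17; with no replicate block, node against lateral gave 0 and a median of 0.18. Numbers shared across methods name different embryos, and their deviations correlated at 0.004 to 0.014. The members' median ran from −0.50 to −0.02 (manual over LCM) and from 0.04 to 0.26 (node over lateral). Over all genes, manual against LCM, DESeq2 called 642 higher and 405 lower, no filter 7 and 12, the carried share subtracted 2 and 0, and edgeR without manual embryo 1 31 and 103; node against lateral, DESeq2 called 183 and 85 and no filter 30 and 6. Members near 0 changed sign with the setting, among them HSP90AB1 (−0.53 to 0.26), BAG1 (−0.22 to 1.00) and HSPE1 (−0.07 to 0.64). Few counts limit the immediate early genes and small heat shock proteins most.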
